A study of Nothobranchius furzeri with 3 samples.

Results

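The genes of oxidative phosphorylation, encoded partly in the nucleus and partly in the mitochondrial genome, were followed in the basal layer of the fin epidermis of *Nothobranchius furzeri*. Members were taken from the deposited UMI count table by gene symbol: names that begin with nduf, sdha to sdhd, uqcr, cox4 to cox8 or atp5, and the 13 protein-coding genes of the mitochondrial genome. These rules gave 108 of 22954 genes, of which 82 were nuclear genes for subunits, 13 were mitochondrial genes for subunits, 12 were assembly or other factors and 1 was a nuclear entry that carries the symbol mt-atp6. Complex I had 35 nuclear and 7 mitochondrial subunit genes, complex II 4 nuclear ones, complex III 9 and 1, complex IV 20 and 3, and complex V 14 and 2. NDUFA4 and its relatives were counted with complex IV, where the protein is found.

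Aged (Tm) fish were aged animals submerged in tunicamycin at 1 µg/mL, a drug that stops sugar chains from being attached to newly made proteins and so disturbs their folding in the endoplasmic reticulum. The labels give the exposure as a night, and the study's methods give it as a full day. Aged and young control fish were kept in DMSO. There were 3 aged (Tm), 4 aged and 4 young libraries. In photo-isolation chemistry (PIC), reverse transcription primers with a light-sensitive block are freed by UV light only in chosen cells, here cells of the basal layer that carry the protein p63, and each RNA molecule is marked by a unique molecular identifier (UMI) and counted from its poly(A) end. The study's methods name the GRZ strain, and no age is given for the fish of these libraries in the sources used here. For this assay the methods name sections of trunk and fin, while a supplementary legend names the fin alone. The labels do not say whether the libraries of a group came from separate animals. The study's methods speak of biological replicates in general, and if libraries shared an animal, p-values measure only a spread that is partly technical. The replicates of each condition carry 1 library name, so that preparation and condition cannot be told apart.

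In oxidative phosphorylation, complex I (NADH dehydrogenase) and complex II (succinate dehydrogenase) pass electrons to ubiquinone, complex III passes them to cytochrome c, and complex IV (cytochrome c oxidase) passes them to oxygen. Complexes I, III and IV pump protons, and complex V (ATP synthase) uses the proton gradient to make ATP. Complex II is built wholly from nuclear genes, whereas the other complexes join nuclear subunits, which are imported, with a few hydrophobic subunits made inside the mitochondrion. Basal keratinocytes are the dividing layer of the epidermis and draw ATP from both glycolysis and this pathway.

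Total counts were 319223 to 705538 in aged (Tm), 37655 to 265509 in aged and 35366 to 298033 in young libraries. Aged 1, aged 3 and young 3 had under 60000 counts, and 3 counts stood for 79.7, 58.5 and 84.8 CPM there (counts scaled to a library total of 1000000), so that many nuclear subunits had no count: 43, 27 and 30 of 82. tp63, the gene of the marker used to choose the cells, was present at 1251 to 1673 CPM in aged (Tm), 319 to 1381 CPM in aged and 424 to 1544 CPM in young libraries. Basal keratinocyte genes (8) summed to 15347 to 21303 CPM in aged (Tm), 28229 to 34073 CPM in aged and 24470 to 60425 CPM in young libraries, and aged (Tm) libraries did not overlap with either control. Most of this sum was krt5, which had 32187 of the 34073 CPM in aged 1. In the 8 libraries over 100000 counts, krt5 had 3473 to 4337 counts while totals differed 6.6-fold. Its CPM there was thus lower the deeper the library. Without krt5 the list summed to 6845 to 11293 CPM in aged (Tm), 1886 to 12051 CPM in aged and 2884 to 11350 CPM in young libraries, and the groups overlapped. The integrin gene itgb4 rose and ITGA6A fell in aged (Tm) against aged libraries. Markers of other cells were present too. Genes of skeletal muscle (21) summed to 4013 to 6483 CPM in aged (Tm), 4659 to 21777 CPM in aged and 15626 to 76203 CPM in young libraries. Fibroblast genes (14) summed to 441 to 2055 CPM in aged (Tm), 1189 to 4350 CPM in aged and 8539 to 20697 CPM in young libraries. No muscle or fibroblast gene was at 0 in all libraries of a group, and 1 immune gene each was in aged (Tm) and in aged libraries. Immune genes (11) summed to 634 to 914, 505 to 1259 and 622 to 1142 CPM, erythrocyte genes (5) to 11.5 to 119, 19.5 to 111 and 40.3 to 141 CPM, and suprabasal keratinocyte genes (6) to 326 to 1569, 273 to 577 and 283 to 1134 CPM in aged (Tm), aged and young libraries. The part of these cells in the results below was not tested except where a value is given, and fewer cells of a type cannot be told apart from less RNA per cell in such samples.

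Nuclear subunit transcripts took a larger part of the aged (Tm) libraries than of any control library, and mitochondrial ones did not. The 82 nuclear subunit genes summed to 15755, 19109 and 16020 CPM in aged (Tm) libraries 1 to 3, against 2682, 12565, 4988 and 9001 CPM in aged libraries 1 to 4. Young libraries 1 to 4 had 11677, 7580, 5033 and 9989 CPM. The groups' means were 16961 ± 1865 in aged (Tm), 7309 ± 4369 in aged and 8570 ± 2896 CPM in young libraries (SD, n = 3, 4 and 4), and the lowest aged values came from the shallow libraries 1 and 3. The 13 mitochondrial genes summed to 26725, 17558 and 24603 CPM in aged (Tm) libraries, against 14633, 23325, 15647 and 21179 CPM in aged libraries. Young libraries had 40702, 27833, 20104 and 22538 CPM. All 3 groups overlapped in this sum. No test was made of sums, since they are scores over chosen genes.

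**Figure D1:**
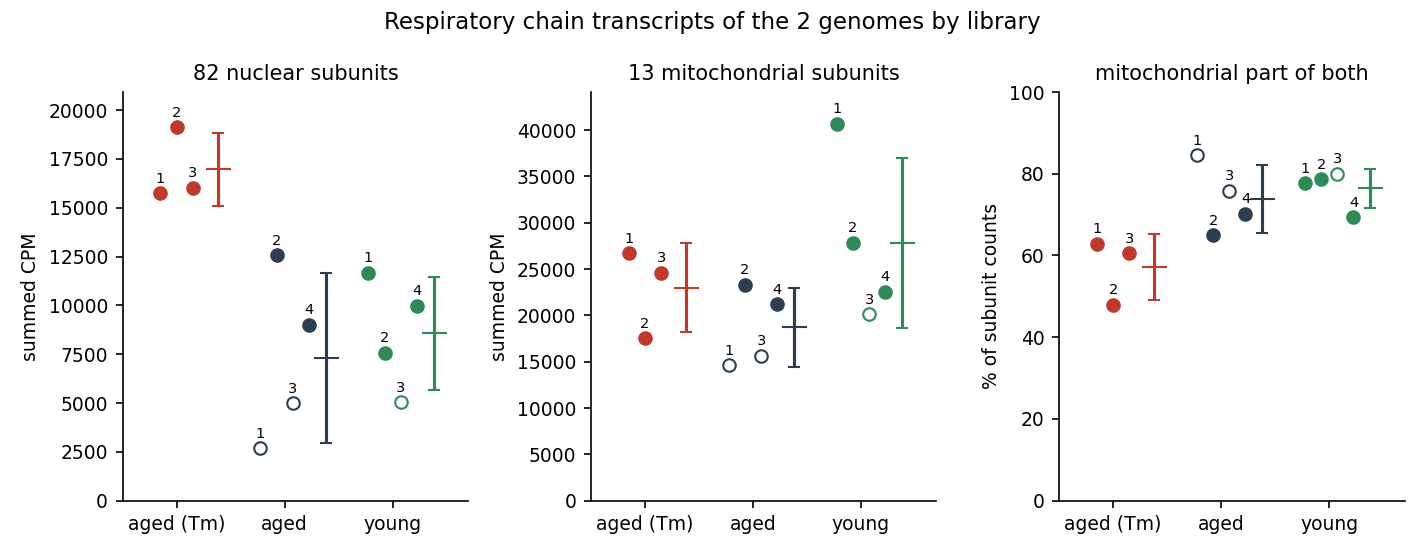
Summed CPM of the 82 nuclear subunit genes (left), of the 13 mitochondrial genes (middle) and the mitochondrial percent of the counts of both (right) in aged (Tm), aged and young libraries, with replicate numbers, group means and SD (bars) beside the points and open points for libraries under 60000 counts. The aged (Tm) points lie above all others on the left (15755 to 19109 CPM), among them in the middle and below them on the right (47.9 to 62.9%).

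The balance between the genomes lay elsewhere in aged (Tm) libraries than in the controls. Mitochondrial genes held 62.9, 47.9 and 60.6% of subunit counts in aged (Tm) libraries, against 84.5, 65.0, 75.8 and 70.2% in aged and 77.7, 78.6, 80.0 and 69.3% in young libraries. This is a ratio within each library and does not depend on scaling. It could depend on depth, for example if high counts were limited in the deeper libraries, which was not tested. Among aged libraries the percent was lower the deeper the library, from 84.5% in aged 1 (37655 counts) to 65.0% in aged 2 (265509 counts). Among young libraries it was highest in the shallowest, young 3, and lowest in the deepest, young 4 (298033 counts). Aged (Tm) libraries were deeper than every control library. Within that group the percent did not follow depth (47.9% at 319223 counts, 60.6% at 705538 counts). All 8 members with over 1000 counts in a library were mitochondrial. Aged (Tm) libraries did not overlap with either control, and the nearest values were 62.9% in aged (Tm) 1 and 65.0% in aged 2, one of the deeper aged libraries. Relative to each other, the nuclear parts of the complexes took other shares as well. Complex II held 2.25, 2.25 and 2.22% of nuclear subunit counts in aged (Tm) libraries, against 2.97, 3.00, 8.98 and 3.51% in aged and 3.69, 2.88, 6.18 and 2.75% in young libraries. Complex III held 9.63 to 10.7% in aged (Tm), 7.03 to 8.93% in aged and 5.62 to 8.40% in young libraries. Complex IV held 22.1 to 24.8% in aged (Tm), 15.8 to 21.5% in aged and 15.7 to 21.9% in young libraries. For complexes II, III and IV the aged (Tm) libraries thus lay outside both controls, below them for II and above them for III and IV. Complex I (24.6 to 29.4, 26.7 to 33.2 and 26.8 to 32.4%) and complex V (36.7 to 38.3, 31.2 to 45.5 and 38.0 to 43.8%) overlapped, in the same order of groups. The gap was narrow for complex IV (22.1% in aged (Tm), 21.9% in young). In aged 1 the complex II share rested on 3 counts (79.7 CPM), and the shares were not tested.

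Tunicamycin-treated and control aged fish were compared to ask how the basal layer responds to stress of the endoplasmic reticulum. Of the 74 members with enough counts to test, 31 rose in aged (Tm) against aged libraries at an adjusted p of 0.1 or less (edgeR's quasi-likelihood test, Benjamini-Hochberg over 3963 genes) and 0 fell. This was 41.9% of the tested members, while 18.5% of all tested genes were called higher and 20.2% lower. The median log2 fold change was 1.27 over the members and -0.03 over all tested genes. Of nuclear subunits, 29 of 59 tested rose, with a median of 1.37, and of mitochondrial subunits 2 of 12 (ATP6 and ND3), with a median of 0.64. In CPM, 33 of the 74 (44.6%) were above every aged library in all aged (Tm) libraries, as were 16.8% of all tested genes. The 34 members not tested had 2 to 121 counts over all 11 libraries and were 23 nuclear subunits, 9 factors, ATP8 and the nuclear mt-atp6 entry. Since a filter on low counts can keep a gene for its level in the deeper aged (Tm) libraries, the fit was repeated over every gene without it. 44 of 108 members were then called higher, against 6.12% of 22954 genes. Genes with few counts enter that share, so it is not like the 18.5% above. The 44 included UQCRFS1, with 15 of its 17 counts from the deeper aged (Tm) libraries. This fit thus does not tell the part of the filter. With the summed level of the muscle genes as a covariate, added after the results were known, 22 members were called higher, against 14.4% of all genes. Among aged libraries that level was highest in the shallow aged 1 and aged 3, so its part cannot be told from that of depth.

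The count depended on the shallow libraries. Without aged 1, aged 3 and young 3, 8 of 82 tested members were called higher in aged (Tm), against 10.1% of all genes, so that the share was near the background. The median log2 fold change was then 0.72 for the members and -0.01 for all genes, and all 31 kept a positive fold change. Leaving out aged (Tm) 2 alone gave 14 of 72 members (19.4%, against 10.9% of all genes), and leaving out aged (Tm) 1 gave 20 of 73 (27.4%, against 10.9%). The 8 were COX5A (sgr13), NDUFA5, uqcrh, NDUFA11, COX7B2, uqcr10, ATP6 and ndufb8, all among the 31.

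**Figure D2:**
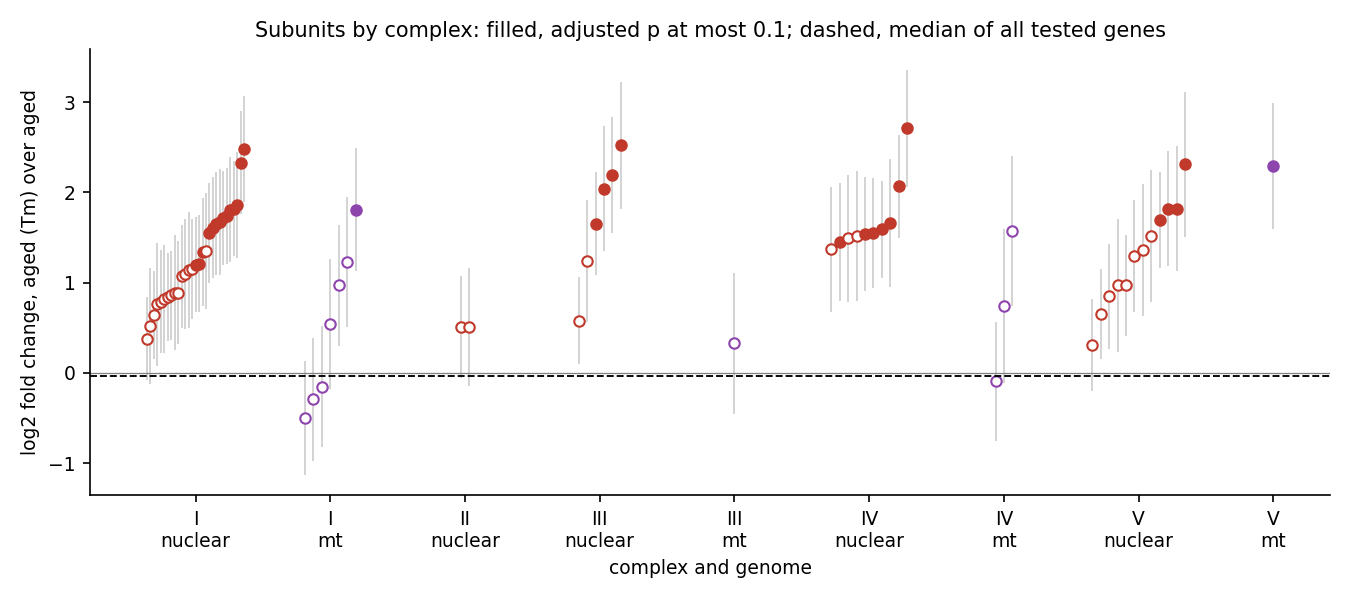
Log2 fold change of aged (Tm) over aged libraries for each tested subunit gene, by complex and genome (red, nuclear; purple, mitochondrial); grey lines are SE, filled points have an adjusted p of 0.1 or less, and the dashed line is the median of all tested genes (-0.03). All 59 nuclear points are above 0 (0.31 to 2.71; 56 with total count scaling and 55 with upper quartile scaling), and 29 are filled, none of them in complex II, while mitochondrial points spread from -0.50 to 2.29.

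In complex I, 14 of 29 tested nuclear subunits rose in aged (Tm) libraries and none fell, with a median log2 fold change of 1.20. In this comparison with aged libraries, 18.5% of all tested genes rose. Without the 3 shallow libraries only NDUFA5, NDUFA11 and ndufb8 of these subunits were called, where 10.1% of all genes were. NDUFA5, an accessory subunit of the arm that reaches into the matrix (on sgr01), had 115, 251 and 166 CPM in aged (Tm) libraries, against 0, 49.0, 19.5 and 49.9 CPM in aged libraries. All aged (Tm) libraries were above all aged ones, and the fitted log2 fold change was 2.48 (SE 0.59, adjusted p = 0.00797). NDUFA11, an accessory subunit of the membrane arm (sgr12), had 83.6, 119 and 70.9 CPM in aged (Tm), against 26.6, 15.1, 0 and 38.8 CPM in aged libraries (log2 fold change 2.33, SE 0.57, adjusted p = 0.00876). NDUFA12, which sits beside the NADH-oxidizing tip, had 74.9, 125 and 85.0 CPM in aged (Tm), against 0, 45.2, 19.5 and 33.3 CPM in aged libraries (1.82, SE 0.53, adjusted p = 0.0191). Neither gene overlapped between these groups.

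Further accessory subunits rose too. NDUFA13, also known as GRIM-19, had 159 to 182 CPM in aged (Tm) and 0 to 86.6 CPM in aged libraries (log2 fold change 1.86). NDUFAB1, the mitochondrial acyl carrier protein, had 241 to 335 CPM in aged (Tm) and 77.9 to 158 CPM in aged libraries (1.72). The other accessory subunits that rose were ndufa10 (1.74), NDUFB1 (1.81), NDUFB6 (1.65), ndufb2 (1.61), ndufa2 (1.67), ndufb8 (1.55) and NDUFB11 (1.34), of which those named NDUFB belong to the membrane arm. NDUFB11 overlapped between these groups, with 89.4 CPM in aged (Tm) 1 against 90.4 CPM in aged 2. Of the core subunits that carry electrons, NDUFV2 (1.20, adjusted p = 0.0886) passed the threshold, as did ndufs3, a core subunit of the matrix arm (1.21, adjusted p = 0.0925). ndufv1, the subunit that binds NADH, did not: it had 317, 247 and 310 CPM in aged (Tm), against 79.7, 298, 97.4 and 250 CPM in aged libraries (0.89, adjusted p = 0.228), so that the deeper aged libraries reached the aged (Tm) range. The core subunits NDUFS8 (0.64, adjusted p = 0.317) and ndufs7 (1.15, adjusted p = 0.116) did not pass either, and ndufs1, with 15 counts over all libraries, was too scarce to test.

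Neither of the 2 tested subunit genes of complex II passed the threshold by edgeR. sdha, the flavoprotein that oxidizes succinate, had 277, 282 and 207 CPM in aged (Tm), 79.7, 196, 429 and 255 CPM in aged and 337, 203, 283 and 201 CPM in young libraries. Its groups overlapped throughout, and its log2 fold change of aged (Tm) over aged was 0.51 (SE 0.56, adjusted p = 0.487). sdhc, a membrane anchor, had 60.5, 87.7 and 76.5 CPM in aged (Tm), against 0, 132, 0 and 38.8 CPM in aged libraries (0.51, SE 0.65, adjusted p = 0.551). SDHD, the other anchor, had 99 counts in all and SDHB, the iron-sulfur subunit, 7, and neither was tested. Without aged 2, sdhc was called higher in aged (Tm) against aged libraries. SDHD was called higher against both controls with no filter, and against young libraries by DESeq2. The summed level of the 4 genes was 355 to 429 CPM in aged (Tm), 79.7 to 448 CPM in aged and 218 to 430 CPM in young libraries, so that the groups overlapped, unlike the nuclear sums of the other complexes. Whether complex II differed from the other complexes in its response was not tested.

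Complex III had the highest median among the nuclear groups, 1.85. Of its 6 tested nuclear subunits 4 rose, against 18.5% of all tested genes. Only uqcrh and uqcr10 of them were called without the 3 shallow libraries, where 10.1% of all genes were. uqcrh, the hinge protein that helps cytochrome c dock (sgr17), had 504, 529 and 366 CPM in aged (Tm) libraries, against 0, 154, 97.4 and 116 CPM in aged libraries. Every aged (Tm) library was above every control library, and the log2 fold change over aged was 2.52 (SE 0.70, adjusted p = 0.0162). The small subunits uqcr10 and UQCR11 gave 119 to 263 and 196 to 370 CPM in aged (Tm), against 0 to 90.4 and 0 to 143 CPM in aged libraries (log2 fold changes 2.19 and 2.04). UQCRC2B, a copy of core protein II on sgr12, had 216, 125 and 143 CPM in aged (Tm), against 26.6, 105, 58.5 and 38.8 CPM in aged libraries (1.65, SE 0.57, adjusted p = 0.0387), and its relative UQCRC2A on sgr03 was below the filter with 106 counts. UQCRB had 424, 570 and 448 CPM in aged (Tm), against 26.6, 437, 156 and 316 CPM in aged libraries, and did not pass (1.24, adjusted p = 0.157). The core protein UQCRC1 and the Rieske iron-sulfur protein UQCRFS1 had 20 and 17 counts in all.

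In complex IV, 7 of 10 tested nuclear subunits rose, against 18.5% of all tested genes, and none fell (median 1.54). Only COX5A on sgr13 and COX7B2 of them were called without the 3 shallow libraries, where 10.1% of all genes were. The table holds 2 genes named COX5A, the subunit near the matrix side of the enzyme. The copy on sgr13 (ENSNFUG00015022073) had 548, 507 and 313 CPM in aged (Tm), against 0, 124, 117 and 88.7 CPM in aged libraries. Young libraries had 112, 153, 28.3 and 161 CPM, and the log2 fold change of aged (Tm) over aged, 2.71 (SE 0.65, adjusted p = 0.008), was the highest of all tested members. The copy on sgr07 had 251, 294 and 213 CPM in aged (Tm), against 0, 192, 39.0 and 139 CPM in aged libraries (1.49, SE 0.70, adjusted p = 0.109), and missed the threshold. The difference between the copies was not tested, and reads that fit both could have been divided between them. COX7B2 had 164, 207 and 184 CPM in aged (Tm), against 0, 79.1, 39.0 and 55.5 CPM in aged libraries (2.07, SE 0.57, adjusted p = 0.016).

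COX6A1 had 259, 407 and 299 CPM in aged (Tm), against 159, 211, 58.5 and 99.8 CPM in aged libraries (log2 fold change 1.59, adjusted p = 0.0358). COX4I1 (1.45), cox6b2 (1.54), COX7A3 (1.55) and COX8A (1.66) passed at adjusted p-values of 0.0607 to 0.0948. COX4I2 and the muscle form cox7a1, which the tissue or oxygen supply selects in mammals, had 8 and 69 counts over all libraries. cox7a1 had 5.76, 12.5 and 22.7 CPM in aged (Tm), against 0, 52.7, 0 and 49.9 CPM in aged and 9.36, 58.1, 28.3 and 47.0 CPM in young libraries. NDUFA4 on sgr05 had 605, 482 and 636 CPM in aged (Tm), against 26.6, 399, 117 and 360 CPM in aged libraries (1.52, adjusted p = 0.113). Its second copy, on sgr12, had 0, 0 and 2.83 CPM in aged (Tm), 0 to 5.55 CPM in aged and 20.1 to 29.1 CPM in young libraries, from 17 counts in all, of which 14 came from young libraries.

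**Figure D3:**
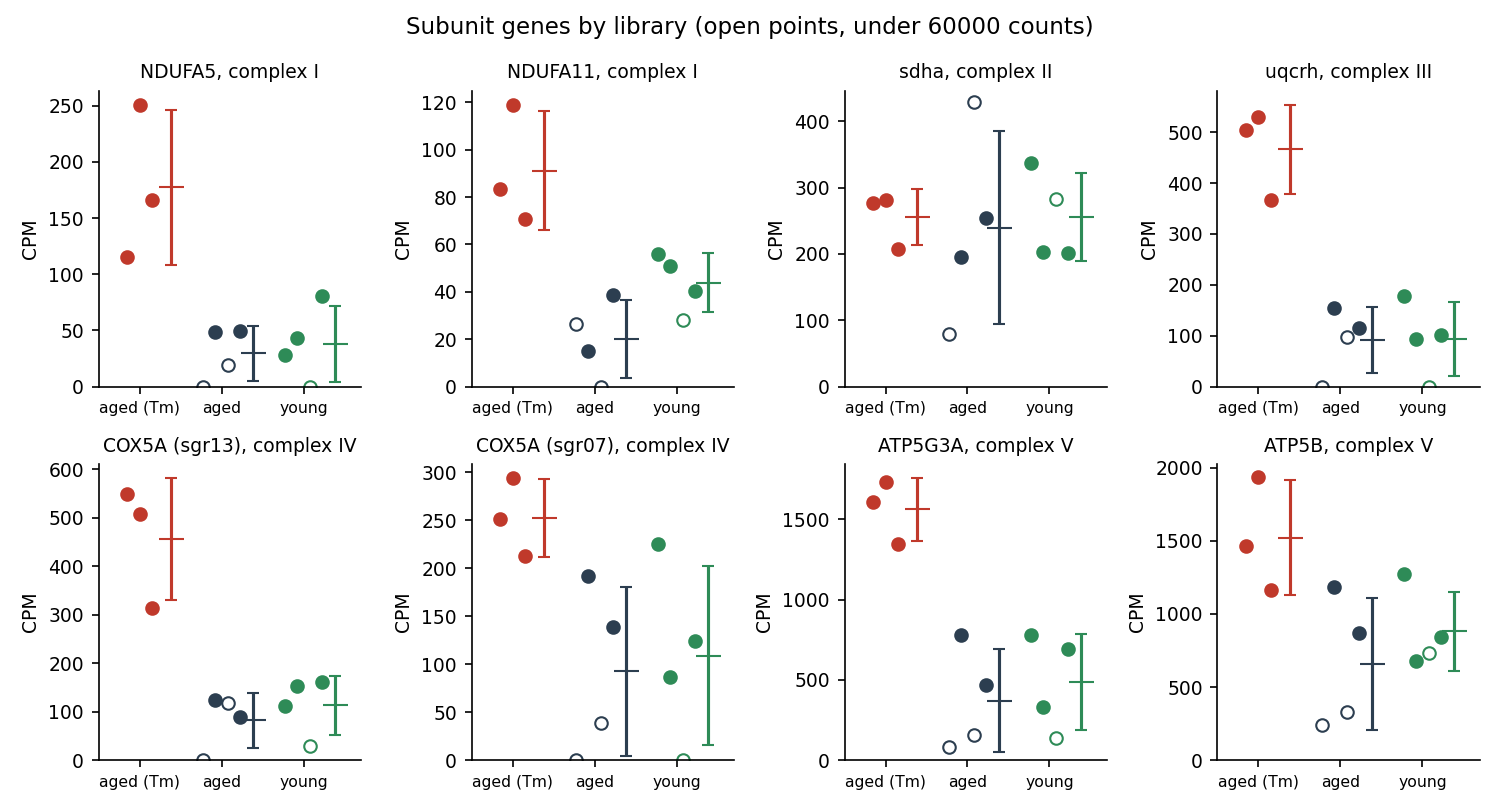
CPM of 8 nuclear subunit genes in aged (Tm), aged and young libraries (points; open, under 60000 counts), with group means and SD beside them. For NDUFA5, NDUFA11, uqcrh, both COX5A copies and ATP5G3A the aged (Tm) points lie above every aged point, while sdha (207 to 282 CPM in aged (Tm), 79.7 to 429 CPM in aged) and ATP5B overlap.

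In complex V, 4 of 12 tested nuclear subunits rose (median 1.33), against 18.5% of all tested genes. Without the 3 shallow libraries, none of the 8 members still called was a nuclear subunit of complex V. ATP5G3A, a gene for the c subunit whose ring turns in the membrane (sgr14), had 1605, 1732 and 1344 CPM in aged (Tm), against 79.7, 780, 156 and 466 CPM in aged libraries. Young libraries had 777, 334, 141 and 691 CPM, so that aged (Tm) lay above both controls (2.31 over aged, SE 0.80, adjusted p = 0.0381). ATP5G3B on sgr07 encodes the same subunit and had 199, 204 and 238 CPM in aged (Tm), against 0, 154, 0 and 55.5 CPM in aged libraries (1.82, adjusted p = 0.0405). The encoded mature c subunits of such copies are nearly identical, and reads shared between the genes would make their separate values uncertain. ATP5D, the delta subunit of the central stalk, had 150 to 241 CPM in aged (Tm) and 26.6 to 109 CPM in aged libraries (1.69, adjusted p = 0.0263), and ATP5L, subunit g of the membrane part, 378 to 558 and 26.6 to 343 CPM (1.82, adjusted p = 0.0526) in aged (Tm) and aged libraries. ATP5B, the catalytic beta subunit, had 1464, 1939 and 1161 CPM in aged (Tm), against 239, 1186, 331 and 871 CPM in aged libraries. Aged 2 was within the aged (Tm) range and the gene did not pass (1.52, SE 0.73, adjusted p = 0.116). atp5fa1, the alpha subunit that alternates with beta in the head, had 208 to 252 CPM in aged (Tm), 97.4 to 266 CPM in aged and 234 to 283 CPM in young libraries (0.65 over aged, adjusted p = 0.309).

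Of the mitochondrial genes, ATP6 and ND3 rose in aged (Tm) against aged libraries by edgeR, and the others did not pass the threshold. ATP6, the proton channel subunit of ATP synthase, had 2046, 1880 and 1962 CPM in aged (Tm), against 266, 908, 273 and 516 CPM in aged and 898, 654, 763 and 1211 CPM in young libraries. It was above every control library and was 2.29 higher than in aged libraries on the log2 scale (SE 0.70, adjusted p = 0.0248). ND3, a membrane subunit of complex I, had 692, 442 and 649 CPM in aged (Tm), against 79.7, 369, 97.4 and 233 CPM in aged libraries (1.81, SE 0.68, adjusted p = 0.0516), and 767, 298, 198 and 487 CPM in young libraries, where it overlapped with aged (Tm). Without the 3 shallow libraries ATP6 was called and ND3 was not. The other 10 tested genes had log2 fold changes of -0.50 to 1.57, with adjusted p-values of 0.146 (COX3) and more. DESeq2 also called COX3, ND1 and ND2 higher, limma voom and edgeR without aged 2 COX3 and ND1, and RLE scaling COX3. ND1, ND2, ND4 and COX2, which encode subunits of complexes I and IV, had 789 to 1318, 940 to 1634, 2559 to 4006 and 2926 to 4470 CPM in aged (Tm) libraries and 159 to 953, 487 to 1284, 1886 to 3548 and 717 to 4651 CPM in aged libraries. CYTB, the mitochondrial subunit of complex III, had 4764, 3192 and 3603 CPM in aged (Tm), against 1912, 5303, 3683 and 4908 CPM in aged libraries.

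Within the mitochondrial counts of each library, which are free of scaling, ATP6 took 7.66, 10.7 and 7.97% in aged (Tm), against 1.81, 3.89, 1.74 and 2.44% in aged and 2.21, 2.35, 3.80 and 5.37% in young libraries. ND3 took 2.52 to 2.64% in aged (Tm), 0.544 to 1.58% in aged and 0.985 to 2.16% in young libraries, and COX3 13.2 to 18.3%, 2.54 to 11.3% and 8.41 to 15.1% in the same order of groups. Aged (Tm) libraries lay above both controls for ATP6 and ND3, and above aged but not young libraries for COX3. In each control group the ATP6 and ND3 shares were highest in the deepest library, aged 2 (265509 counts) and young 4 (298033 counts). That of COX3 was not. Aged (Tm) libraries were deeper still, though the deepest of them, aged (Tm) 3, did not have the highest ATP6 share. The part of depth in these shares was not tested. In the mitochondrial genome the order of these genes is ATP8, ATP6, COX3 and ND3. In vertebrates ATP8 and ATP6 share a transcript whose poly(A) end lies after ATP6. ATP8 had 19 counts in all libraries together and was not tested.

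ND6, COX1 and ND5, with ND4L, together took more of the mitochondrial counts in the shallow libraries. ND6, which in vertebrates is the only protein-coding gene on the opposite strand, took 7.44 to 8.89% in aged (Tm), against 29.0, 10.4, 15.2 and 10.9% in aged and 6.51, 11.6, 14.2 and 10.9% in young libraries. COX1 took 4.13 to 8.17% in aged (Tm), 4.47 to 17.8% in aged and 3.56 to 15.3% in young libraries, and the highest values came from aged 1, aged 3 and young 3. The 4 genes together took 13.1, 14.3 and 19.6% in aged (Tm), 58.8, 16.8, 36.1 and 19.4% in aged and 12.4, 22.9, 36.1 and 21.6% in young libraries. Their CPM was 1428 to 2187 for ND6, 244 to 584 for ND5, 824 to 2011 for COX1 and 6.27 to 46.1 for ND4L in aged (Tm) libraries, against 2313 to 4249, 360 to 1567, 1043 to 2603 and 15.1 to 186 in aged libraries, and none passed the test. Whether the counting used strand is not given in the sources used here, so reads of ND6 and of its opposite strand cannot be told apart, nor can those of genes that overlap, such as ATP8 with ATP6 and ND4L with ND4. The 8 members with over 1000 counts in any library were all mitochondrial, and krt5 had 3473 to 4337 counts in the 8 libraries over 100000 counts, whose totals differed 6.6-fold. Whether high counts were limited in the deeper libraries was not tested.

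**Figure D4:**
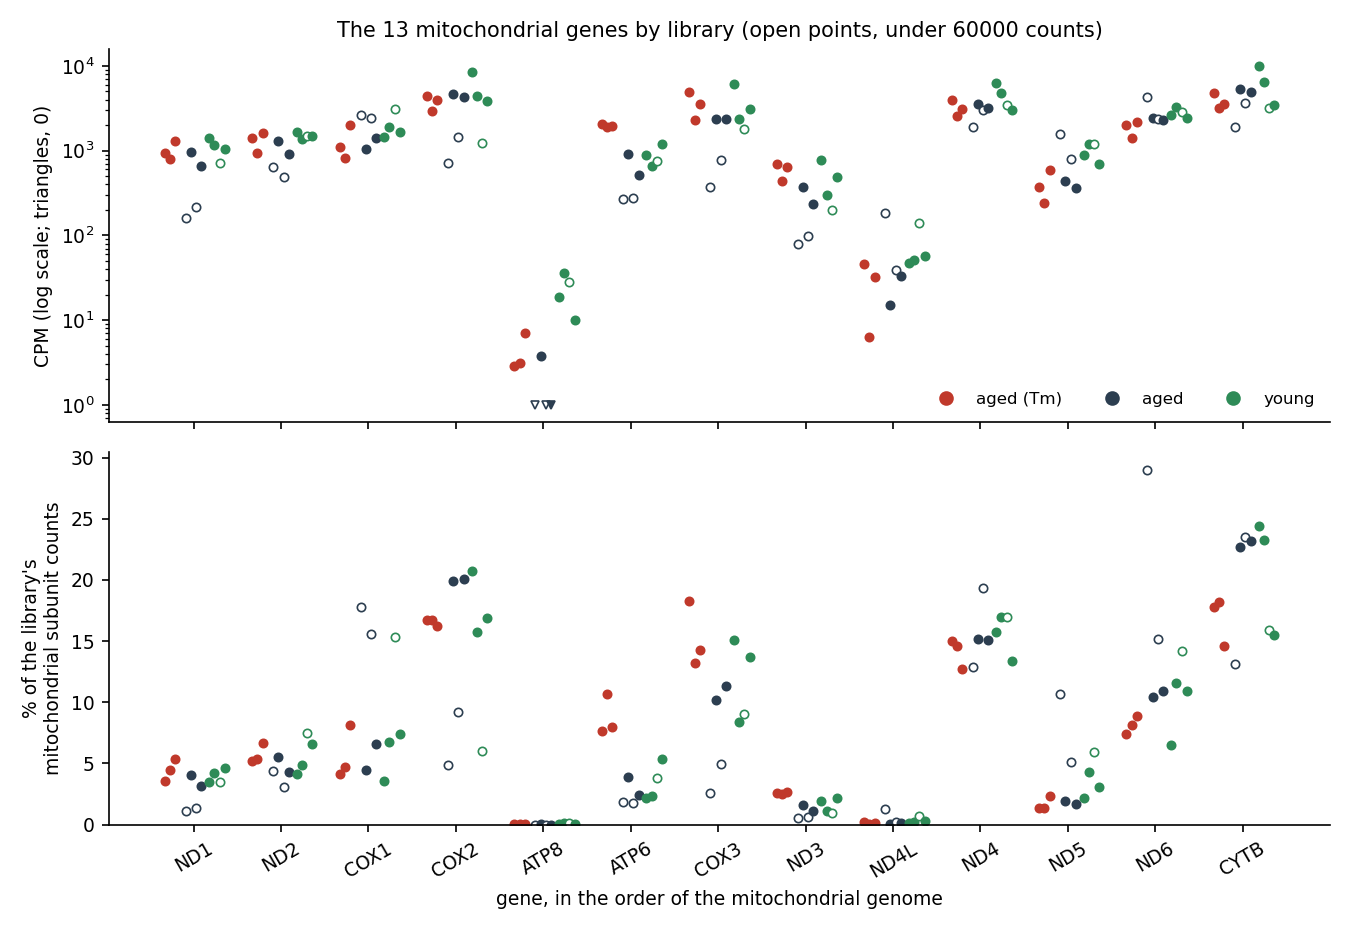
CPM on a log scale (top) and percent of each library's mitochondrial subunit counts (bottom) for the 13 mitochondrial genes, in their order along the mitochondrial genome, with a point for each aged (Tm), aged and young library (open, under 60000 counts; triangles, a count of 0). ATP6 takes 7.66 to 10.7% in aged (Tm) libraries and at most 5.37% in the others, and the open points of ND6, COX1 and ND5 lie high.

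Aged and young fish were compared to ask what changes with age in these cells. No member passed the threshold in aged against young libraries in either direction by edgeR (the smallest adjusted p was 0.528), where 0.0757% of all genes were called higher and 0.631% lower. DESeq2 and limma voom called 0 members as well. At an unadjusted p under 0.05 edgeR had 1 of 74 members, NDUFAF1, against 242 of 3963 genes. By limma voom 5 of 74 passed that level, all of them lower in aged libraries, against 276 of 3963 genes. DESeq2 had 0 of the 75 to which it gave an adjusted p, against 243 of 3370 genes. None of these shares was above that of all genes. NDUFAF1, a factor that helps to assemble complex I, had 26.6, 15.1, 39.0 and 27.7 CPM in aged, against 37.4, 72.7, 84.8 and 80.5 CPM in young libraries, with an overlap only at 39.0 and 37.4 CPM. Its log2 fold change was -1.48 (unadjusted p = 0.0145, adjusted p = 0.528). The median log2 fold change was -0.14 over 59 nuclear and -0.70 over 12 mitochondrial subunits, against 0.05 over all genes. The nuclear median was 0.15 without aged 1, 0.09 without aged 3, 0.12 without young 1 and 0.18 without the 3 shallow libraries. All 12 mitochondrial values were below 0 (-1.21 to -0.11), 10 of them with total count scaling, and the lowest p was that of ND3 (0.0942 unadjusted, 0.901 adjusted). The 7 mitochondrial genes of complex I summed to 8764, 9039, 7034 and 7714 CPM in aged and 13820, 12041, 10010 and 9241 CPM in young libraries. In CPM per total count these did not overlap, whereas the sums of the other mitochondrial groups did. TMM scaling raised the sum of all mitochondrial subunits more in aged 2 (23325 to 33092) than in young 4 (22538 to 25412). With that scaling the complex I sums of aged and young libraries overlap too. The summed muscle level was 4659 to 21777 CPM in aged and 15626 to 76203 CPM in young libraries. With that level as a covariate, added after the results were known, 33 members were called lower in aged libraries, as were 13.3% of all genes. Within these groups the level was highest in the shallow libraries (21777 CPM in aged 1, 20771 in aged 3, 76203 in young 3). The fit thus does not tell its part from those of depth and age.

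In aged (Tm) against young libraries 20 of 74 members rose and 0 fell, with 15.9% of all tested genes called higher and 13.2% lower. All 20 were nuclear subunits, and 18 of them also rose against aged libraries, a comparison that shares the aged (Tm) libraries. The medians were 1.25 over nuclear and -0.07 over mitochondrial subunits (0.18 for the mitochondrial ones with RLE scaling), against -0.10 over all genes. Without the 3 shallow libraries, 25 of 82 members were called higher, against 16.5% of all genes. Leaving out aged (Tm) 2 gave 7 of 72 (9.72%, against 9.37%), and leaving out young 2 gave 7 of 76 (9.21%, against 8.95%). Those shares were near the background. Muscle and fibroblast genes were lower in every aged (Tm) library than in every young one, in sum. With the muscle level as a covariate 0 members were called higher, as were 0.908% of all genes. Of 17 changes described in full, 11 turned below 0. Since these groups did not overlap in muscle level, the fit does not tell its part from that of treatment or age. NDUFA5 had the lowest adjusted p among members of complex I (young: 28.1, 43.6, 0 and 80.5 CPM, log2 fold change 2.22, SE 0.58, adjusted p = 0.0112), and uqcrh among those of complex III (young: 178, 94.5, 0 and 101 CPM, 2.51, SE 0.70, adjusted p = 0.0166). ATP5C1, the gamma subunit that forms the rotating shaft of ATP synthase, and NDUFS5 of complex I were called only against young libraries. ATP5C1 had 383, 470 and 428 CPM in aged (Tm), against 243, 94.5, 56.6 and 195 CPM in young libraries (1.76, adjusted p = 0.0548), and its change against aged libraries was 1.29 (adjusted p = 0.116). ATP6 did not pass against young libraries (1.50, SE 0.69, adjusted p = 0.122), though its groups did not overlap.

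Assembly factors and partner genes were described beside the subunits. Of the 12 factors among the members, 3 were tested and none passed in any comparison in the main edgeR fit. They were sdhaf2 (log2 fold change of aged (Tm) over aged 1.15), NDUFAF1 (0.44) and ndufaf2 (-0.01). DESeq2 and RLE scaling called sdhaf2 higher in aged (Tm) against aged libraries, and limma voom and upper quartile scaling called NDUFAF1 lower in aged (Tm) against young libraries. With no filter, edgeR called ndufaf5, NDUFAF4, sdhaf4 and sdhaf2 higher against aged libraries, as it did 6.12% of all genes. It called NDUFAF4 higher against young libraries too, with 4.6% of all genes. DESeq2 called NDUFAF4 higher against both controls. This gene had 75 counts in all, 60 of them from aged (Tm) libraries. In a list of 35 further assembly factors, 3 of 8 tested genes rose in aged (Tm) against aged libraries, where 18.5% of all tested genes did. HIGD1A, which binds complexes III and IV, had 343, 103 and 65.2 CPM in aged (Tm), against 53.1, 15.1, 39.0 and 5.55 CPM in aged libraries (3.60, SE 0.75, adjusted p = 0.00332). COA3, which acts on newly made COX1, had 421, 570 and 218 CPM in aged (Tm), against 53.1, 113, 58.5 and 55.5 CPM in aged libraries (2.83, SE 0.59, adjusted p = 0.00332). OXA1L, the insertase of the inner membrane, also rose (1.59, adjusted p = 0.0528), but was not called without the 3 shallow libraries. Of the electron carriers and their enzymes, 1 of 4 tested genes rose, against 18.5% of all tested genes. It was CYCSB for cytochrome c, with 184, 128 and 125 CPM in aged (Tm), against 0, 7.53, 58.5 and 27.7 CPM in aged libraries (3.17, SE 0.65, adjusted p = 0.0032).

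Among the regulators of mitochondrial gene expression, 2 of 6 tested genes rose and 2 fell in aged (Tm) against aged libraries. Of all tested genes, 18.5% rose and 20.2% fell there. PPRC1 on sgr03, a coactivator related to PGC-1alpha, had 176, 97.1 and 92.1 CPM in aged (Tm), against 26.6, 11.3, 0 and 11.1 CPM in aged libraries (log2 fold change 3.71, SE 0.63, adjusted p = 0.000863). SLIRP, a protein that binds mitochondrial mRNAs, had 147, 166 and 68.0 CPM in aged (Tm), against 0, 18.8, 19.5 and 11.1 CPM in aged libraries (3.43, adjusted p = 0.00259). Its partner in mammals, LRPPRC, fell (-1.31, SE 0.58, adjusted p = 0.0919), and so did ppargc1a, the gene of PGC-1alpha itself, with 8.65, 6.27 and 8.50 CPM in aged (Tm), against 133, 15.1, 97.4 and 44.4 CPM in aged libraries (-2.37, SE 0.78, adjusted p = 0.0314). For LRPPRC and ppargc1a the highest aged values were those of the shallow libraries 1 and 3, and neither was called without the shallow libraries. Of citric acid cycle and pyruvate dehydrogenase genes, 2 of 4 tested rose (sucla2 and IDH3B), against 18.5% of all tested genes. Of these 2, sucla2 was not called without the shallow libraries. Of ATP, phosphate and proton carriers, 0 of 3 passed.

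The nuclear subunits moved with another set of nuclear transcripts, those for cytosolic ribosomal proteins. Cytosolic ribosomal protein genes (74) summed to 211446, 239986 and 157389 CPM in aged (Tm), against 16943, 193899, 46394 and 138649 CPM in aged and 147303, 68572, 26353 and 108079 CPM in young libraries. All 73 tested ones had a positive log2 fold change of aged (Tm) over aged (72 with total count and 71 with upper quartile scaling; median 1.43), and 9 passed the threshold (18.5% of all tested genes did so). Without the 3 shallow libraries 2 of 73 passed, against 10.1% of all tested genes called higher, and the median was 0.61. Per cytosolic ribosomal protein count there were 0.0745 to 0.102 nuclear subunit counts in aged (Tm), 0.0648 to 0.158 in aged and 0.0793 to 0.191 in young libraries. The groups thus overlapped once set against these genes. The deeper aged 2 and aged 4 had 0.0648 and 0.0649, below every aged (Tm) library. The shallow aged 1 and aged 3 had 0.158 and 0.108, above every aged (Tm) library. A list of 67 genes for neurotransmitter receptors, synapse proteins and light detection, which epidermis uses little, ran the other way, with sums of 257 to 636 CPM in aged (Tm), 772 to 3771 CPM in aged and 589 to 2008 CPM in young libraries. Of these genes 10 of 14 tested fell in aged (Tm) against aged libraries, as did 20.2% of all tested genes. They included nrxn1b on sgr03 (-1.77, adjusted p = 0.0194) and gria4a (-1.83, adjusted p = 0.0281). Without the 3 shallow libraries 0 of 10 tested were called lower, against 5.34% of all genes. With the level of that list in the model, again added later, 0 members were called higher in aged (Tm) against aged libraries, where 0.429% of all genes were, the median log2 fold change of the members was -0.28, and 6 of the 25 members described in full that rose turned below 0 (uqcr10, NDUFA13, NDUFB11, ATP5G3A, ATP5L and ND3). Against young libraries 0 members and 1.82% of all genes were called higher in that model. Of the list, 1 gene in aged (Tm), 2 in aged and 6 in young libraries were at 0 throughout the group. That level differed between the groups too, and the fit does not tell its part from that of the treatment.

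**Figure D5:**
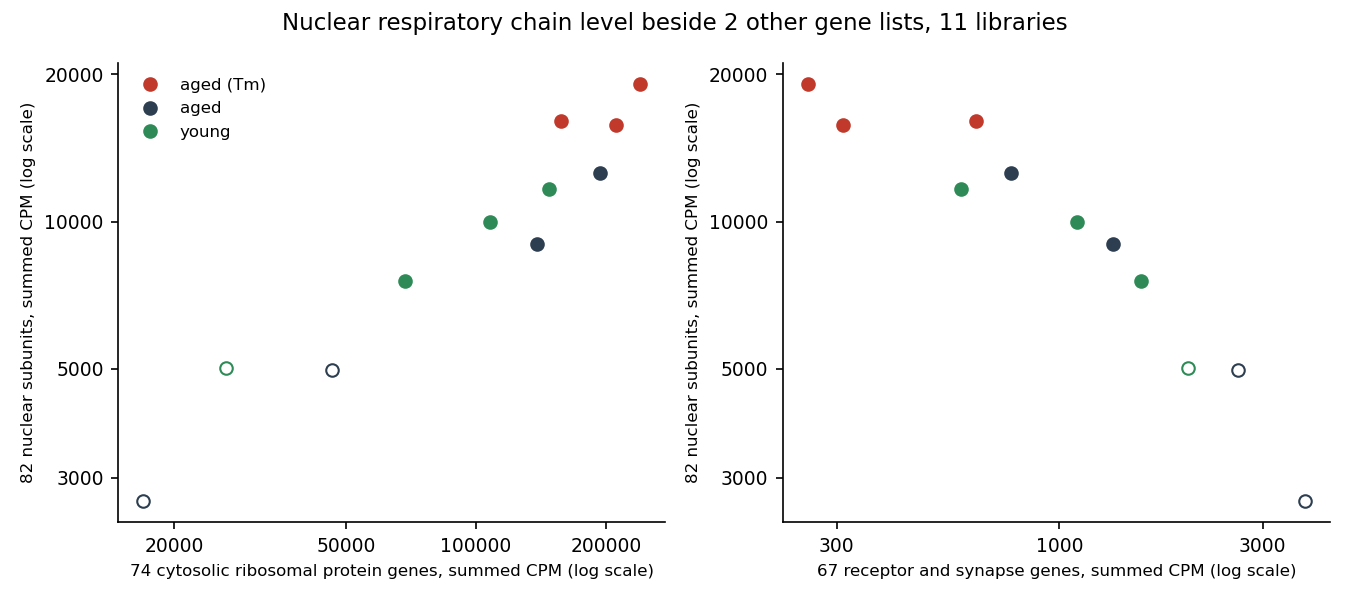
Summed CPM of the 82 nuclear subunit genes (vertical, log scale) against that of 74 cytosolic ribosomal protein genes (left) and of 67 receptor and synapse genes (right, both log scales) in the 11 libraries (open points, under 60000 counts). Nuclear subunits run up with the ribosomal genes and down with the receptor and synapse genes, from 2682 CPM in aged 1 at one end to 19109 CPM in aged (Tm) 2 at the other.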

How the data were processed

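The authors separated sequences by barcode, mapped them and deposited raw UMI counts per gene without normalization, and the submitters' processing notes name UMI-tools 1.0.0, HISAT2 2.1.0, featureCounts 1.6.4 and DESeq2 1.20.0. Genome build and annotation are not given in the sources used here, so symbols and chromosome names are those of the table. The members and gene lists were chosen with earlier results of these data known.

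The 11 libraries entered a single model in edgeR 4.0.16 (R 4.3.3), with TMM scaling, filterByExpr by group (3963 genes kept), two-sided quasi-likelihood tests, Benjamini-Hochberg adjustment over all tested genes and a threshold of 0.1. CPM values are per total count of the library, and SE is that of the log2 fold change. Named were all mitochondrial and complex II subunits, members past the threshold (25 in full), the 2 members of highest mean CPM in complexes I, III, IV and V, tested members of isoform pairs, and up to 3 genes past the threshold of each other pathway list. Other genes were named after their values were seen.

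Other settings were scaling by RLE, by the upper quartile or by total counts, every gene kept or those with 10 counts in 3 libraries, DESeq2 1.42.0, limma voom 3.58.1, models of only the groups compared, libraries thinned to 35366 counts, a threshold of 0.05, replicate number as a block, and each library left out in turn. Added after seeing the data were leaving out the 3 libraries under 60000 counts, normalization without genes over 1000 counts, and a covariate for the muscle or the receptor and synapse list. The procedure was tested on simulated data. Depth limits precision, as 3 counts, the upper limit for a count of 0, stood for 4.25 to 84.8 CPM, which covers counting error only. Promoter and protein sequences were not used here. Figures were drawn with matplotlib 3.10.9.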

Additional observations from a re-analysis of the deposited data

Results flagged for a closer look

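Of 124 groups of 4 libraries checked, 9 had a library far from the others of its group, and chance alone gives about 1 in 20. Complex II took 8.98% of nuclear subunit counts in aged 3, against 2.97 to 3.51% in the other aged libraries, and complex III took 7.03% there, against 8.63 to 8.93%. ND4L took 1.27% of mitochondrial subunit counts in aged 1, against 0.0646 to 0.249% in the other aged libraries, and CYTB took 13.1% there, against 22.7 to 23.5%. ATP8 was counted in aged 2 (0.0161%) and listed at 0 in the other aged libraries. In young 3 the assembly and other factors summed to 198 CPM, against 337 to 362 CPM in the other young libraries. COX7B2 was at 0 CPM in young 3, against 65.5 to 72.7 CPM, and ndufa2 at 0 CPM, against 70.5 to 84.2 CPM. NDUFA13 had 103 CPM in young 1, against 21.8 to 30.2 CPM in the other young libraries. Aged 1, aged 3 and young 3 are the libraries under 60000 counts, in which 3 counts stand for 58.5 to 84.8 CPM, and the part of depth in these values was not tested.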

How the results depend on the processing

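The changes of single members described in full (25 against aged and 17 against young libraries) kept their direction in every setting in which they were tested except the covariates; thinning tested only 6 of the 25 and 4 of the 17. With the receptor and synapse covariate, log2 fold changes of aged (Tm) over aged turned to -0.31 for uqcr10, -0.05 for NDUFA13, -0.25 for NDUFB11, -0.21 for ATP5G3A, -0.11 for ND3 and -0.36 for ATP5L, and those over young to -0.06 for uqcr10, -0.10 for UQCR11, -0.11 for ATP5G3A and -0.08 for ATP5L. With the muscle covariate, those over young turned to -0.39 for NDUFA5, -0.09 for COX7B2, -1.39 for uqcr10, -0.15 for ATP5D, -0.14 for UQCRC2B, -1.17 for NDUFB11, -1.89 for UQCR11, -0.64 for ndufb2, -1.14 for ATP5G3A, -0.63 for ndufa2 and -1.31 for ATP5L, and none of these passed the test. In aged (Tm) against aged libraries the 31 members called higher became 16 with upper quartile scaling (21.6%, against 10.6% of all genes). Total count scaling gave 17 (23%, against 9.34%) and DESeq2 53 of 86 (61.6%, against 16.5%). Libraries thinned to 35366 counts gave 3 of 32 (9.38%, against 6.9%). Leaving out the 3 libraries under 60000 counts gave 8 of 82 (9.76%, against 10.1%). The receptor and synapse covariate gave 0 (against 0.429%). With each library left out in turn there were 14 (without aged (Tm) 2, 19.4%, against 10.9%) to 43 (without aged (Tm) 3, 58.9%, against 24.2%). RLE scaling gave 46 (62.2%, against 24.2% of all genes), no filter 44 of 108 (40.7%, against 6.12%) and limma voom 30 (40.5%, against 18.6%). Thinning called 2 members lower (ND6 and ND5), and 16.1% of all genes. In aged (Tm) against young libraries the 20 called higher became 36 with RLE scaling (48.6%, against 21.9% of all genes). Upper quartile scaling gave 11 (14.9%, against 10.2%) and total count scaling 12 (16.2%, against 8.73%). DESeq2 gave 44 of 85 (51.8%, against 19%) and thinning 2 of 32 (6.25%, against 9.69%). At an adjusted p of 0.05 there were 10 (13.5%, against 11.2%). The receptor and synapse covariate gave 0 (against 1.82%), as did the muscle covariate (against 0.908%). The lowest counts were 7 without aged (Tm) 2 (9.72%, against 9.37%) or without young 2 (9.21%, against 8.95%). There were 9 without aged (Tm) 1 (12.3%, against 7.96%) and 10 without young 3 (13.2%, against 12.7%). The highest were 31 without aged 3 (40.3%, against 20.8%), 40 without aged (Tm) 3 (54.8%, against 23%) and 42 without aged 1 (54.5%, against 23.4%). Members called lower there were 2 with upper quartile scaling (NDUFAF1 and ND5), 2 with thinning (CYTB and ND5), 1 each with limma voom and with only the groups compared (NDUFAF1), 1 with no filter (NDUFA4 on sgr12) and 1 with the muscle covariate (COX2). Of all genes, 22.9, 19.7, 14.1, 16.4, 0.789 and 5.02% were called lower in these settings, in this order. In aged against young libraries 33 were called lower with the muscle covariate, as were 13.3% of all genes. RLE, upper quartile and total count scaling put the median of all genes in aged (Tm) against aged libraries at 0.18, -0.52 and -0.58 (main -0.03), and the members' median lay 1.26 to 1.39 above it. After TMM scaling the summed level of nuclear subunits was 18303 to 32598 in aged (Tm), 2403 to 17826 in aged and 5348 to 17285 in young libraries. The difference in the mitochondrial percent between aged (Tm) and aged libraries was -19.7 to -12.1 percentage points when each library was left out. The replicate numbers did not pair the libraries (correlations of same-numbered deviations from -0.509 to 0.376). With the replicate number as a block, 38 members were called higher against aged libraries (51.4%, against 20.1% of all genes). Against young libraries 24 were (32.4%, against 16.5%). The cause of these shifts was not tested. In the 3 shallow libraries depth limits what can be seen of scarce subunits.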

Other observations

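The mitochondrial rRNAs, which belong to no complex and are not subunit genes, summed to 6984, 1657 and 7105 CPM in aged (Tm), 3479, 11484, 6079 and 5540 CPM in aged and 6222, 11576, 7804 and 5496 CPM in young libraries. The groups overlapped, aged (Tm) 2 had the lowest value of all, and neither rRNA passed the test in any comparison. Aged (Tm) 2 also had the lowest mitochondrial percent of subunit counts, 47.9%. The nuclear gene that carries the symbol mt-atp6, on sgr06, had 2 counts over all libraries, both from aged ones.

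All members together held 4.27, 3.71 and 4.10% of all counts in aged (Tm), 1.74, 3.62, 2.09 and 3.05% in aged and 5.27, 3.58, 2.53 and 3.29% in young libraries. Aged (Tm) lay above aged libraries and overlapped with young ones in this share.

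Genes for carriers of ATP, phosphate and protons across the inner membrane (11) summed to 9932, 9529 and 5804 CPM in aged (Tm), against 1115, 9371, 3546 and 6827 CPM in aged and 8608, 4883, 2149 and 4963 CPM in young libraries, and overlapped. The genes of the citric acid cycle and pyruvate dehydrogenase (20) summed to 427 to 639 CPM in aged (Tm), 369 to 929 CPM in aged and 299 to 961 CPM in young libraries, with the highest values in aged 1 and young 3. Of these IDH2 on sgr13 was lower in aged (Tm) than in young libraries (25.9, 28.2 and 58.1 CPM, against 56.1, 138, 537 and 134 CPM, log2 fold change -1.96, adjusted p = 0.04 by edgeR).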
